A study of Rattus norvegicus with 6 samples.

Results

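The Rab genes encode small GTPases that direct vesicle traffic. They were taken as every gene whose symbol on the array platform is Rab followed by a number and at most a letter and a digit, which gave 54 of the 18166 genes measured, on 56 probe sets. Where a gene had more than 1 probe set, the one with the highest mean over all arrays was used. The samples were 6 cultures of primary rat hippocampal neurons, dissected from embryos at day 18 and kept with 10 µM 5-fluorodeoxyuridine (FUDR), which blocks dividing cells. At 4 days in vitro they were infected with adeno-associated virus (1800000 infectious units per ml) that expressed either an shRNA against Ncoa3, a nuclear receptor coactivator, or a control shRNA, and total RNA was taken at 14 days. There were 3 Ncoa3 shRNA arrays and 3 control shRNA arrays, with 1 of each in every one of 3 experiments, and the number of arrays limits the precision. Both groups therefore share the virus, the drug and the culture time. The sources used here name no promoter for the shRNA, no hairpin sequence and no second hairpin.

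A Rab protein switches between a GTP-bound form, which sits on a membrane and recruits effectors, and a GDP-bound form, which a GDP dissociation inhibitor (GDI) carries through the cytosol. Exchange factors (GEFs) load GTP, activating proteins (GAPs) speed its hydrolysis, and a prenyl group added with the help of an escort protein anchors the GTPase. Different Rabs mark different compartments, and neurons use them to move cargo into axons and dendrites, to recycle receptors and to release synaptic vesicles.

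Silencing was seen on the arrays. Ncoa3 had deposited log2 signals of 7.43, 7.43 and 7.39 in Ncoa3 shRNA neurons, against 8.79, 8.88 and 8.37 in control neurons, so the groups did not overlap. After quantile normalization of all 6 arrays the difference was -0.97 ± 0.142 (SE; limma's adjusted p = 0.00747), or 1.96-fold lower, and it no longer passed without experiment 1 (-0.92; 0.134) or without experiment 2 (-0.88; 0.123). All 11 measured neuron markers, among them Snap25, Syn1 and Map2, were above the level that 95% of 68 olfactory receptor genes stayed under (a log2 signal of 7.51), as were 5 of 6 astrocyte markers and 0 of 6 microglia markers. Array medians ran from 6.81 to 6.97 with Ncoa3 shRNA and from 7.08 to 7.25 with control shRNA, and the median difference over all genes was -0.25. Between 8680 and 13979 of 36685 probe sets had the same deposited value on a pair of arrays of a group, against at most 2 on a pair from different groups, and the highest signal was 14.00 on the Ncoa3 shRNA arrays and 14.05 on the control arrays. Any processing that differed between the groups cannot be told apart from the shRNA. Differences below are therefore given on 2 scales: in the deposited log2 signals, and in the signals after that quantile normalization ("normalized"), which removes the offset and any true change common to most genes.

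Most Rab genes were brighter than the median gene. The mean deposited signal of 42 of the 54 lay above that of the median gene (7.89), and the median over the Rab genes was 10.17. Signals of different probe sets do not rank amounts of mRNA, so this describes the probe sets. The 6 with the highest signal were Rab6b of the Golgi, Rab7a of late endosomes, Rab11b of recycling endosomes, Rab6a, Rab10 of transport to the plasma membrane and Rab5c of early endosomes, with means between 12.54 and 13.16. The 3 with the lowest were Rab37 at 6.34, Rab17 at 6.60 and Rab25 at 6.66. Of the 54, 9 lay under 7.51, the olfactory receptor level, where a signal may not come from the named transcript.

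The RefSeq table of gene starts (build GRCr8) held 43 of the 54 genes, and the 250 bases before the start were read for each. The median G+C content was 62.8%, against 52.0% over 27457 promoters of all genes. It was 65.2% for the 33 Rab genes brighter than the median gene and 57.8% for the 10 dimmer ones. On both strands, the nuclear receptor half-site AGGTCA was in 4 of 43 (9.30%) and in 13.7% of all promoters, and in 0 of the 6 matched Rab genes that passed the test below. The cAMP response element TGACGTCA was in 1 (Rab25; 1.70% of all promoters), the E-box TCACGTGA of lysosomal genes in 1 (Rab21; 0.743%), and the NRF1 site in 6 (14.0%; 4.17% of all), namely Rab12, Rab18, Rab35, Rab4a, Rab6a and Rab6b. A match is a string of letters and not a shown binding site. Rab8b, which fell, and Rab5b, which rose relative to the offset, are printed as G+C-rich promoters with none of the 4 motifs, Rab25 for its cAMP response element and Rab35 for its pair of NRF1 matches. Each is 5′ to 3′, with motif matches in capitals.
Rab8b (chr8:76417549-76417798, minus strand): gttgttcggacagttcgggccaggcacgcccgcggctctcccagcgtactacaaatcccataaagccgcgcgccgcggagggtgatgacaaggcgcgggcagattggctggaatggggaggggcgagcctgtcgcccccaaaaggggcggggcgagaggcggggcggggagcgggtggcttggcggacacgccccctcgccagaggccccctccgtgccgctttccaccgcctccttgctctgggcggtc
Rab5b (chr7:1712737-1712986, minus strand): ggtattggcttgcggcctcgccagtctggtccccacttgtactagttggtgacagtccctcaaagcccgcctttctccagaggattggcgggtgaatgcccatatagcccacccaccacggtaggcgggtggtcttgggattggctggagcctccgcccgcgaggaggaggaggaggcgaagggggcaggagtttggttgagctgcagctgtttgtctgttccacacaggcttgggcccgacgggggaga
Rab25 (chr2:176304222-176304471, minus strand): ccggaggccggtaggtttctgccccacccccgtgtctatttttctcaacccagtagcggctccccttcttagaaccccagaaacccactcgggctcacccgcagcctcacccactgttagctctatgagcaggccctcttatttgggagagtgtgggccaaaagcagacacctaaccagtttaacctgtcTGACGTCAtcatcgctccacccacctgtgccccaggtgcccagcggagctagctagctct
Rab35 (chr12:46641945-46642194, minus strand): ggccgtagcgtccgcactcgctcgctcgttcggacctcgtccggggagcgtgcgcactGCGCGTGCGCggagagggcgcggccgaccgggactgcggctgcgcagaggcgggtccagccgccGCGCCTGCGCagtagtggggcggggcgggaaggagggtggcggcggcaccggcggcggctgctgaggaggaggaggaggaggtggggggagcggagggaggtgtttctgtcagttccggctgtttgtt

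After normalization, 4 Rab genes rose with Ncoa3 shRNA, 4 fell and 46 missed the threshold (limma, adjusted p under 0.05). The share called was 14.8%, where 19.5% of all genes were called (10.5% higher, 9.04% lower), so the family's count did not exceed the background. Among genes brighter than the median gene, 5 of 42 Rab genes (11.9%) and 10.4% of all genes were called, and among the dimmer ones 3 of 12 (25.0%) and 28.6%. The normalized groups did not overlap for 20 Rab genes, and for 40.5% of all genes. At an unadjusted p under 0.05 there were 16 (29.6%), where 33.6% of all genes were. The median normalized difference was 0.01 over the Rab genes and 0.01 over all genes, and it was -0.01, -0.01 and 0.04 in experiments 1, 2 and 3. No Rab gene reached a 1.5-fold normalized difference, and the range was -0.55 to 0.40. In the deposited values 4 of the 54 reached it, as did 1676 of the 18166 genes. Of the 8 called genes, 6 had a deposited value shared by at least a pair of arrays of a group, so their SEs may be too small.

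**Figure D1:**
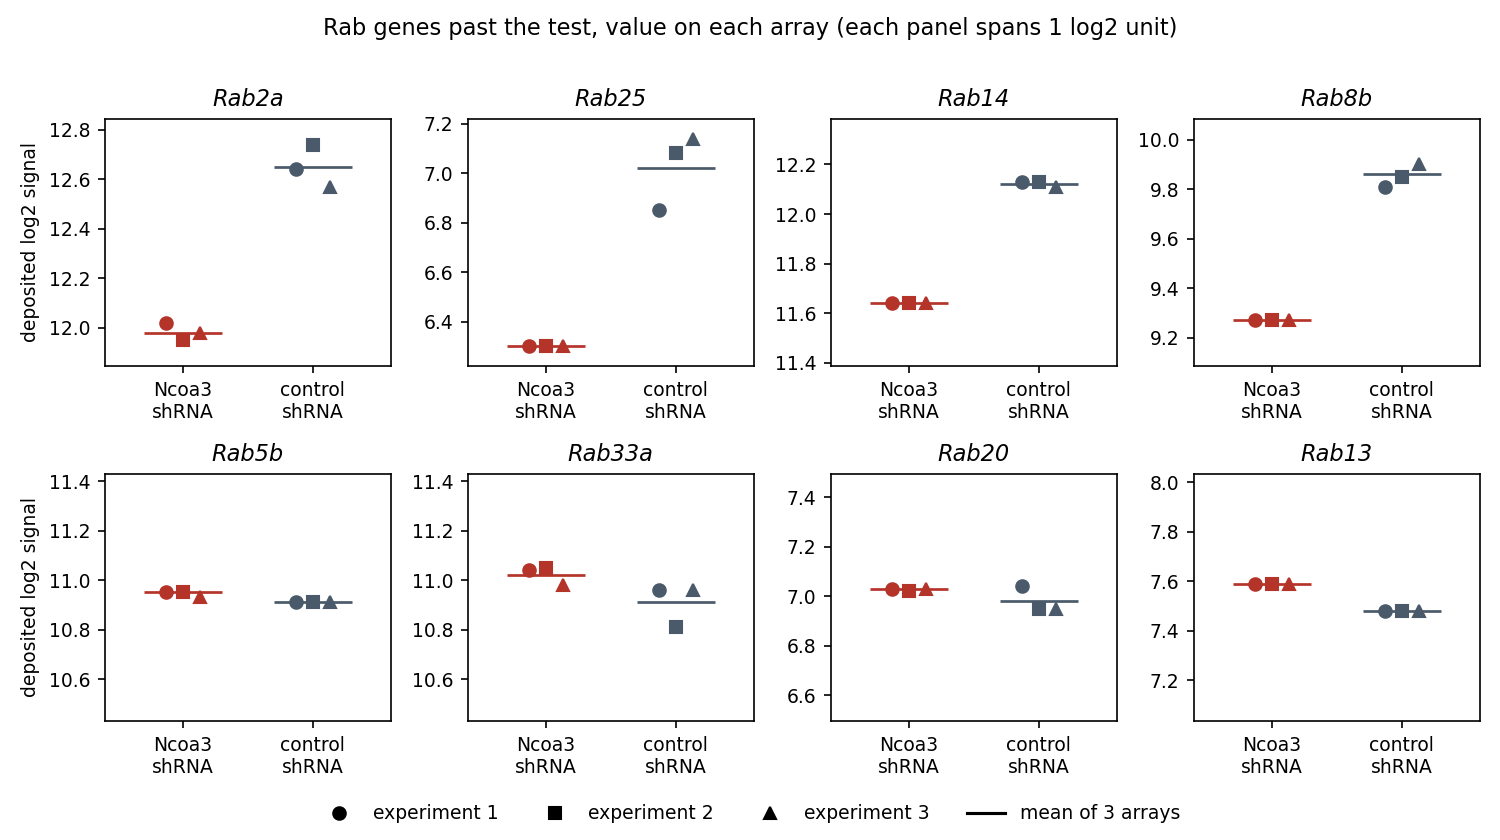
Deposited log2 signal (vertical axis) of the 8 Rab genes that passed the normalized test, with 1 point per array, the Ncoa3 shRNA arrays left of the control shRNA arrays, the marker giving the experiment and the line the mean of 3 arrays. Rab2a, Rab25, Rab14 and Rab8b lie lower in the Ncoa3 shRNA arrays with no overlap, and the lower row shows groups that differ by at most 0.11.

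Rab2a, which acts between the endoplasmic reticulum and the Golgi, fell the furthest on the normalized scale. Its deposited signals were 12.02, 11.95 and 11.98 in Ncoa3 shRNA neurons, against 12.64, 12.74 and 12.57 in control neurons. Every Ncoa3 shRNA array lay below every control array, and the gap between the groups was wider than the spread within either. The normalized difference was -0.55 ± 0.0568 (SE over 3 arrays in each group; limma, adjusted p = 0.00243), a 1.46-fold decrease, and the deposited difference was -0.67. By experiment the normalized difference was -0.50, -0.70 and -0.45. Its paralogue Rab2b had 9.94, 9.82 and 9.42 with Ncoa3 shRNA and 10.52, 10.68 and 9.86 with control shRNA, which overlapped. Rab2b was lower in each experiment. Its normalized difference of -0.40 ± 0.212 (SE) missed the threshold in limma (adjusted p = 0.251) and passed it once the experiment was a block (0.0463).

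Rab14, which carries cargo between the Golgi and recycling endosomes, fell as well. It had a deposited signal of 11.64 on all 3 Ncoa3 shRNA arrays, against 12.13, 12.13 and 12.11 in control neurons. The groups stood clear of each other, and the Ncoa3 shRNA value was one and the same number in every experiment. The normalized difference was -0.34 ± 0.0369 (SE), 1.27-fold lower, with limma's adjusted p = 0.00279. Rab8b, which with Rab8a serves transport from the Golgi to the plasma membrane, was at 9.27 on all Ncoa3 shRNA arrays and at 9.81, 9.85 and 9.90 in control neurons, a normalized difference of -0.33 ± 0.0758 (SE; limma's adjusted p = 0.0298). Rab8a stood at 0.10 (adjusted p = 0.222), and the pair was not compared by a test.

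Rab25, a relative of Rab11 known from epithelia, had 6.30 on all Ncoa3 shRNA arrays, against 6.85, 7.08 and 7.14 in control neurons. The groups did not overlap. The normalized difference was -0.43 ± 0.0831 (SE; limma's adjusted p = 0.0177). The deposited difference was -0.72, further than the -0.67 of Rab2a. Its mean signal of 6.66 was under the olfactory receptor level of 7.51.

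The 4 genes that rose did so relative to the offset, and their deposited differences were small. Rab13, known for traffic to epithelial junctions, read 7.59 on all Ncoa3 shRNA arrays and 7.48 on all control arrays. Its deposited difference was 0.11 and its normalized one 0.40 ± 0.0670 (SE; limma's adjusted p = 0.0118). Since each group held a single deposited value, the only source of its spread inside a group was the normalization. Rab33a, a Golgi Rab that in hippocampal neurons is tied to vesicles bound for the axon, read 11.04, 11.05 and 10.98 with Ncoa3 shRNA and 10.96, 10.81 and 10.96 with control shRNA. The groups did not overlap but lay close, and the normalized difference was 0.31 ± 0.0724 (SE; adjusted p = 0.0321). Rab5b, of early endosomes, read 10.95, 10.95 and 10.93 with Ncoa3 shRNA and 10.91 on all control arrays, a normalized difference of 0.23 ± 0.0512 (SE; adjusted p = 0.0276). Rab20, known from phagosomes of macrophages, read 7.03, 7.02 and 7.03 with Ncoa3 shRNA and 7.04, 6.95 and 6.95 with control shRNA, which overlapped. Its normalized difference was 0.33 ± 0.0813 (SE; adjusted p = 0.0391), at a mean signal of 7.01. In the deposited values Rab13 passed limma's test (adjusted p = 3.78e-05), while Rab33a (0.145), Rab5b (0.0807) and Rab20 (0.216) did not. The deposited values of Rab13 had no spread inside either group. That p-value therefore measures no spread between replicates and does not set Rab13 apart from the others.

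None of these calls held in every fit. Without the 2 arrays of experiment 1, or without those of experiment 2, 0 of the 54 Rab genes passed limma's test (9 and 8 at an unadjusted p under 0.05, or 16.7% and 14.8%), while 19 (35.2%) passed without experiment 3. Of all genes, 1.23%, 0% and 46% passed in these 3 fits, and 16.8% and 16.9% had an unadjusted p under 0.05 in the first pair, so the counts of Rab genes moved with those of the whole array. Rab2a and Rab14 passed in 7 of the 9 fits that left out 1 array or 1 experiment. Rab13 passed in 4, Rab25 and Rab8b in 3 each, and Rab20, Rab33a and Rab5b in 2 each. After centring each array on its median, 2 Rab genes passed (3.7%), where 10.3% of all genes did. They were Rab13 (limma's adjusted p = 0.037) and Rab25 (0.0199), while Rab2a (0.0563) and Rab14 (0.27) did not pass.

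Blocking on the experiment, 16 Rab genes passed (5 higher, 11 lower), or 29.6%, where 39.3% of all genes did (20.8% higher, 18.6% lower). The 8 added by it were Rab2b, the endosomal Rab22a (0.25; adjusted p = 0.0251) and Rab17 (-0.22; 0.0166), the recycling Rabs Rab11a (-0.22; 0.0452) and Rab35 (-0.17; 0.0299), the secretory Rab27a (-0.23; 0.0192), and Rab32 (-0.18; 0.0115) and Rab38 (-0.16; 0.0124) of lysosome-related organelles. Each value is a normalized difference with limma's adjusted p under the block. Rab22a stood at -0.01 in the deposited values. Rab38 read 6.83 on all Ncoa3 shRNA arrays and 7.27 on all control arrays, so its spread came from the normalization alone.

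In the deposited values 23 Rab genes passed limma's test, 1 higher and 22 lower, or 42.6%, where 47.2% of all genes passed (3.97% higher, 43.3% lower). With the block 26 passed there, 1 higher and 25 lower, where 60.2% of all genes did (4.33% higher, 55.9% lower). With no block, the count was 13 without experiment 1 and 15 without experiment 2. The share of all genes was not counted in these leave-outs, so these counts are not read as a Rab result. The groups did not overlap for 31 Rab genes, and for 61% of all genes (55.6% lower). The median deposited difference was -0.19 for the Rab genes and -0.25 for all genes. The offset depended on brightness: it was -0.29 in the dimmest and -0.14 in the brightest of 10 bins of genes, and 23 of the 54 Rab genes were in the brightest bin, with a median of -0.10.

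**Figure D2:**
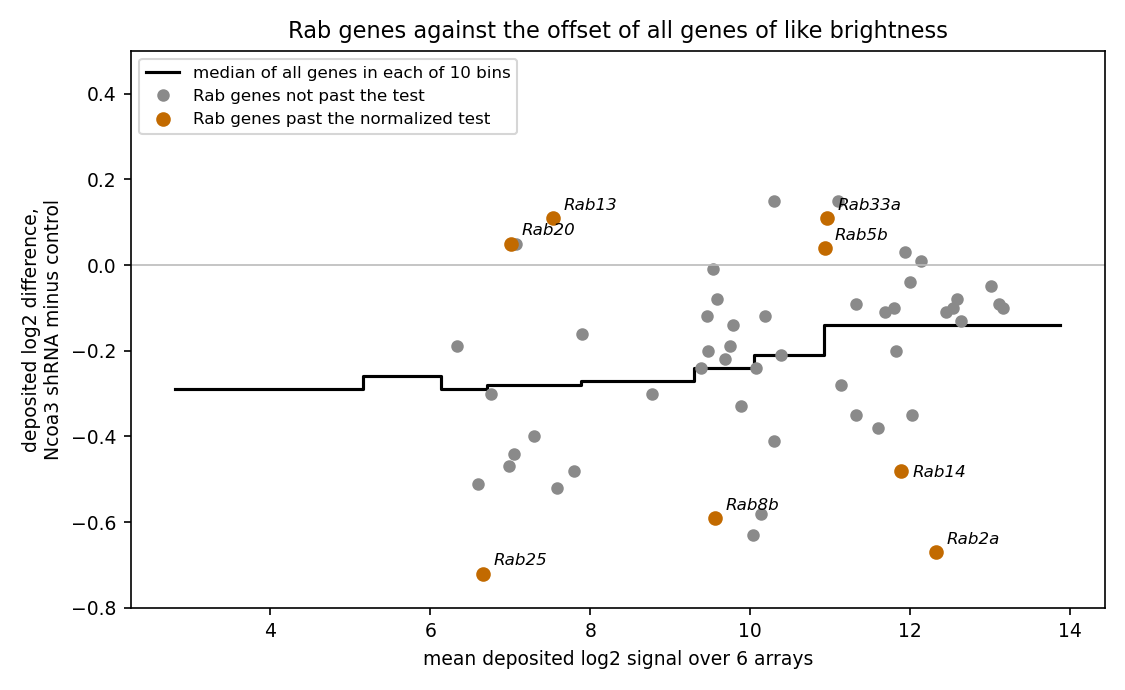
Deposited log2 difference, Ncoa3 shRNA minus control (vertical axis), of the 54 Rab genes against their mean deposited log2 signal (horizontal axis), with the median of all genes in 10 bins of equal size as a stepped line. The line lies between -0.29 and -0.14, and Rab2a and Rab14 lie below it among the bright genes at -0.67 and -0.48.

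By compartment, 6 of the 8 calls were in the lists for recycling and polarised transport (4 of 12, 33.3%) and early endosomes (2 of 7, 28.6%), where 19.5% of all genes were called. The lists are short, and no test compared them with each other. Of these 6 calls, Rab13, Rab20 and Rab25 were dimmer than the median gene, and 28.6% of all such genes were called. After centring each array on its median, 2 of 12 and 0 of 7 passed, where 10.3% of all genes did. Of 13 Rabs of the endoplasmic reticulum and Golgi, 1 rose (Rab33a), 1 fell (Rab2a) and 11 did not pass. Rab1a, which is needed for transport from the endoplasmic reticulum to the Golgi, stood at -0.21 (limma's adjusted p = 0.0956), with 11.84, 11.75 and 11.93 in Ncoa3 shRNA neurons and 12.20, 12.28 and 12.10 in control neurons. Its groups did not overlap. Rab1b stood at 0.14 (0.243), Rab18 of lipid droplets and the endoplasmic reticulum at -0.18 (0.261), and the Golgi Rabs Rab6a and Rab6b at -0.03 and 0.01. Of 7 early endosome Rabs 2 rose (Rab5b, Rab20) and 0 fell, with Rab21, which binds integrins, at -0.34 (0.210), Rab5c at 0.01 and Rab31 at -0.06. Of 12 Rabs of recycling and polarised transport 1 rose (Rab13), 3 fell (Rab14, Rab25, Rab8b) and 8 did not pass, among them Rab10 at 0.03, Rab11b at 0.01, Rab4a at 0.06 and Rab15 at 0.04.

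Rabs of late endosomes, lysosomes and autophagy gave 0 calls among 10 in limma's test, where 19.5% of all genes were called. There was 1 at an unadjusted p under 0.05 (33.6% of all genes), and 2 were lower with the block (18.6% of all genes). The latter were Rab32 and Rab38, both under the olfactory receptor level in mean signal. Rab7a, which drives late endosomes to lysosomes, read 13.06 on all Ncoa3 shRNA arrays and 13.07, 13.14 and 13.24 in control neurons, a normalized difference of 0.03 (adjusted p = 0.568). Exocytic Rabs gave 0 calls among 8 in the same test (2 at an unadjusted p under 0.05; 1 lower with the block). Rab3a, the main synaptic vesicle Rab, read 12.34, 12.40 and 12.43 with Ncoa3 shRNA and 12.47, 12.47 and 12.56 with control shRNA. The normalized difference was 0.01 ± 0.0472 (SE; limma's adjusted p = 0.948), and the deposited one -0.11. Its relative Rab3b stood at 0.34 ± 0.0990 (SE; adjusted p = 0.0641), with 11.05, 11.40 and 11.08 against 11.01, 11.01 and 11.06 in control neurons, which overlapped. Rab3c at -0.10, Rab3d at 0.11, Rab26 at 0.14 and Rab27b at -0.19 did not pass. Of the other 4 genes, the ciliary Rab23 (-0.08), Rab28 (0.01), Rab40b (0.18) and Rab40c (0.01), 0 passed, with 0 at an unadjusted p under 0.05 and 0 with the block.

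**Figure D3:**
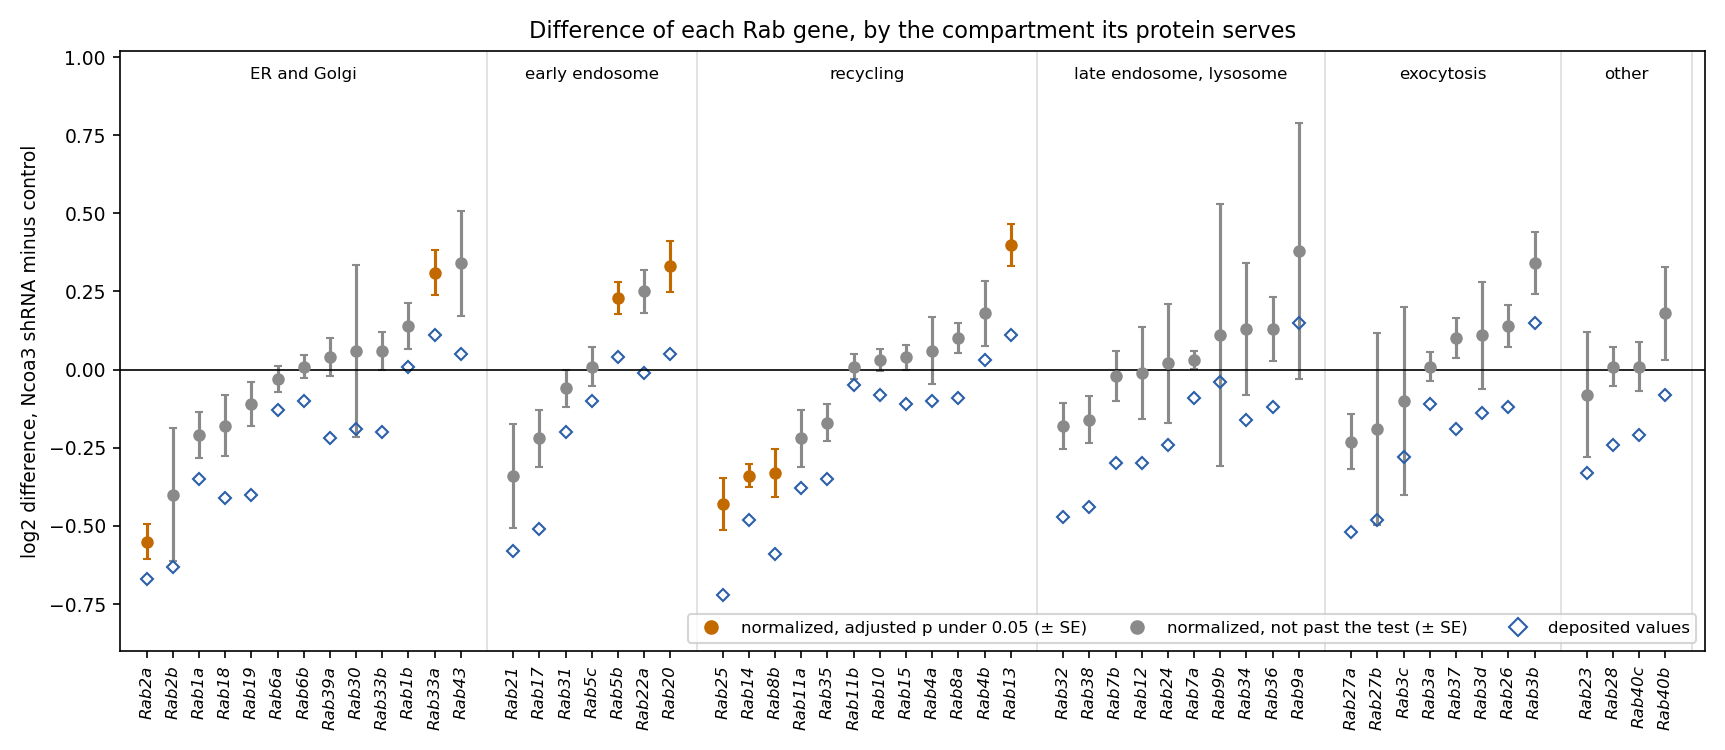
Log2 difference, Ncoa3 shRNA minus control (vertical axis), of all 54 Rab genes, sorted within 6 compartment groups. Filled circles are normalized differences ± SE (3 arrays per group), orange where limma's adjusted p was under 0.05, and open diamonds are deposited differences. The normalized values lie between -0.55 and 0.40, and 45 of the 54 deposited differences are below 0.

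Some Rab genes differed between experiments in the normalized signals. An F test of the experiment within limma's additive model (shRNA and experiment, normalized signals) called 6 of the 54 Rab genes, where 18.8% of all genes were called. They were Rab24, Rab9b, Rab30, Rab3c and Rab34, and Rab38, whose deposited signal did not differ between experiments in either group, so that its call came from the normalization alone. In the deposited values 0 Rab genes passed the same test (14 at an unadjusted p under 0.05), as after cyclic loess normalization (20). After centring each array on its median 29 passed. The counts of all genes called in the same fits are given below with the dependence on processing. No share of all genes is given for the unadjusted counts, so none of these counts is read as a Rab result.

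Rab9b, a relative of Rab9a in transport from endosomes back to the Golgi, differed between the experiments. Its normalized signals in experiments 1, 2 and 3 were 12.01, 11.41 and 12.70 with Ncoa3 shRNA and 11.66, 11.49 and 12.65 with control shRNA. Both groups were highest in experiment 3 and lowest in experiment 2, and the difference between groups was 0.11 ± 0.419 (SE; limma's adjusted p = 0.890; experiment, adjusted p = 0.0416). Rab9a read 10.25, 10.27 and 10.94 with Ncoa3 shRNA and 9.35, 10.06 and 10.91 with control shRNA, also highest in experiment 3 (experiment, limma's adjusted p = 0.0849). Rab30, a Golgi Rab, read 9.63, 9.41 and 10.29 against 9.72, 9.37 and 10.07 in control neurons, and Rab3c, of synaptic vesicles, read 11.07, 10.56 and 11.60 against 11.32, 10.75 and 11.44 (experiment, limma's adjusted p = 0.0484 for each). All 4 of these genes were highest in experiment 3 in both groups.

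Rab24, linked to autophagy, went the other way, at 9.52, 9.56 and 9.11 with Ncoa3 shRNA and 9.52, 9.57 and 9.03 with control shRNA (experiment, limma's adjusted p = 0.0401). The groups differed by at most 0.08 within an experiment, and both were lowest in experiment 3. Rab34, which positions lysosomes and serves cilia, read 8.12, 8.06 and 7.68 against 7.97, 8.10 and 7.41 in control neurons (experiment, 0.0487). In the normalized signals 15 Rab genes (27.8%) were highest and 18 (33.3%) lowest in experiment 3 in both groups. Of all genes, 17.5% were highest and 51.1% lowest there. The normalization made part of the lowest count. Rab13, with a single deposited value in each group, had normalized signals of 7.76, 7.77 and 7.67 with Ncoa3 shRNA. With control shRNA they were 7.37, 7.38 and 7.25, and Rab38 was likewise lowest by the normalization alone. How much of either share it made was not tested. The summed deposited log2 signal of 6 astrocyte markers was 53.3, 54.5 and 56.3 with Ncoa3 shRNA and 55.3, 56.3 and 57.5 with control shRNA in experiments 1 to 3, highest in experiment 3 in both groups. The sums of 6 microglia markers (38.2 with Ncoa3 shRNA and 37.6 with control shRNA in experiment 3), 5 oligodendrocyte markers (38.5 with Ncoa3 shRNA and 39.5 with control shRNA) and 6 fibroblast and vascular markers (47.5 with Ncoa3 shRNA and 48.5 with control shRNA) were also highest there in both groups. Only 0 of 6, 3 of 5 and 3 of 6 of these markers, in that order, were above the olfactory receptor level. Signals under it may not come from the named transcripts. The sum of 11 neuron markers lay between 133.3 and 133.6 with Ncoa3 shRNA and between 135.1 and 135.5 with control shRNA. The part of other cell types in these differences was not tested. In bulk RNA, fewer cells of a type and less RNA per cell cannot be told apart.

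**Figure D4:**
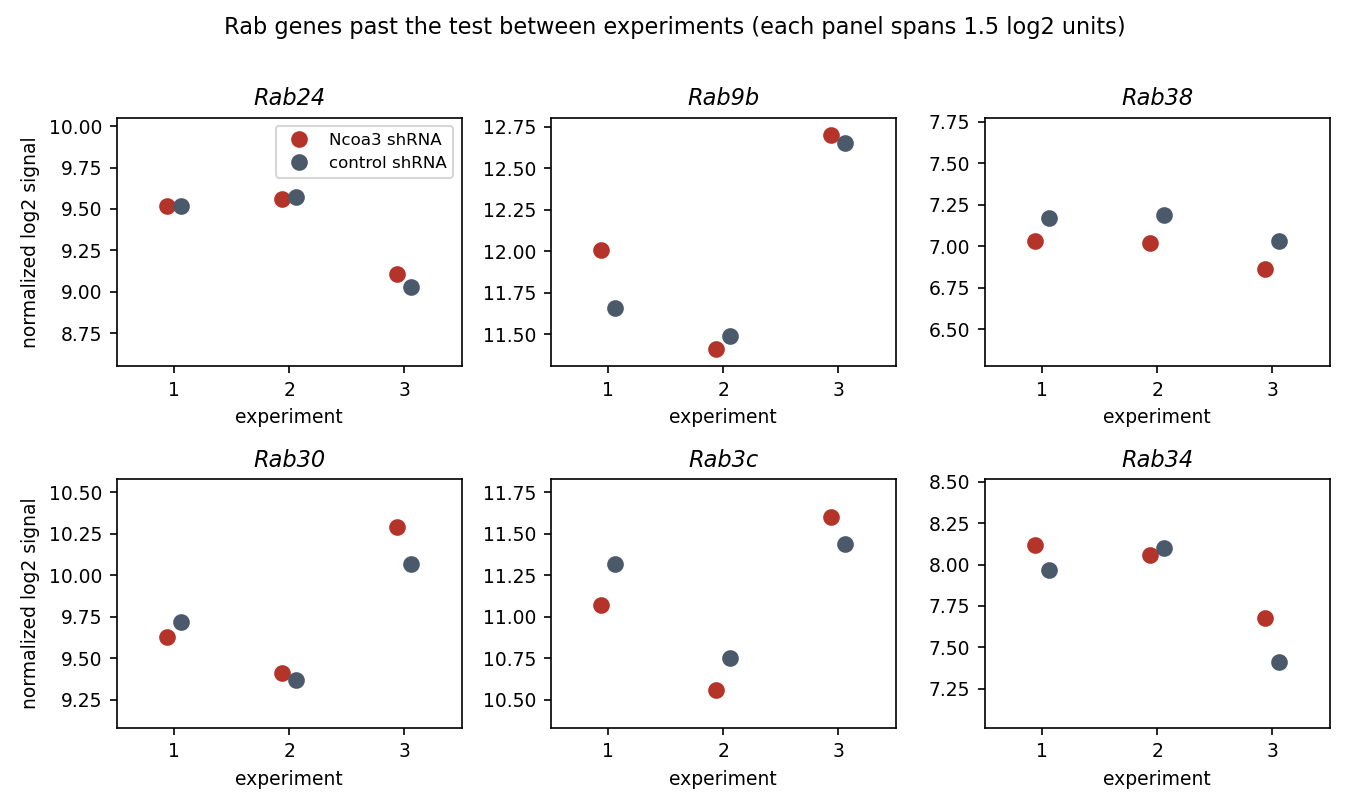
Normalized log2 signal (vertical axis) of the 6 Rab genes past the test between experiments, by experiment (horizontal axis), with 1 point per array and the Ncoa3 shRNA point left of the control shRNA point. Rab9b, Rab30 and Rab3c are highest and Rab24 and Rab34 lowest in experiment 3 in both groups. Rab38 is also lowest there, but its deposited signal was 6.83 on all Ncoa3 shRNA arrays and 7.27 on all control arrays, so the normalization made that difference.

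Of the genes that run the Rab cycle, 119 of those listed were measured, and 6 rose, 7 fell and 106 did not pass limma's test on the normalized signals (10.9% called, where 19.5% of all genes were). Among 31 GAPs 2 rose and 3 fell (16.1% called). Tbc1d15, which acts on Rab7, had 7.32, 7.10 and 7.32 in Ncoa3 shRNA neurons, against 8.10, 8.10 and 7.90 in control neurons. The groups did not overlap, and the normalized difference was -0.49 ± 0.10 (SE; limma's adjusted p = 0.0213). Rabgap1l changed by -0.26 (0.0475) and Tbc1d8b by -0.21 (0.0494), while Tbc1d25, which acts on Rab33b, rose by 0.43 (0.0147) and Tbc1d7, also a subunit of the TSC complex, by 0.38 (0.0323).

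Among 47 effectors 2 rose and 4 fell (12.8% called, where 19.5% of all genes were). Rab11fip2, which ties Rab11 to myosin V, read 7.94, 7.78 and 8.0 with Ncoa3 shRNA and 8.64, 8.65 and 8.64 with control shRNA. The groups stood clear of each other, with a normalized difference of -0.46 ± 0.0690 (SE; limma's adjusted p = 0.00829). Rab11fip1 changed by -0.19 (0.0416). Sytl5, a Rab27 effector, read 6.48 on all Ncoa3 shRNA arrays and 7.24 on all control arrays (-0.48 normalized, 0.00862). Since the arrays of each group read alike, the SE of Sytl5 may be too small. Mical1, an actin-oxidising enzyme, changed by -0.38 (0.0156). Of the 13 called, 5 were under the olfactory receptor level in mean signal (Tbc1d8b, Rab11fip1, Sytl5, Mical1 and Unc13d). Plekhm1, which binds Rab7 on lysosomes, rose by 0.40 (0.0145). Unc13d, a Rab27 effector in secretion, stood at 0.27 normalized (0.0416) but at -0.02 in the deposited values, where it passed as lower (0.0418), so its direction turned with the scale.

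Of 31 GEFs 1 rose (3.23%), which was Rin3, an exchange factor for the Rab5 family, at 0.42 (limma's adjusted p = 0.0132). Of 10 genes in the list for escorts, GDIs and prenylation 1 rose (10.0%), Arl6ip5 at 0.17 (0.0372). The list is broad, and its members are not all escorts, GDIs or prenylating enzymes. Of all genes, 19.5% were called. Gdi2 stood at -0.06 (0.665), the escort gene Chm at -0.27 (0.780), Rabggtb, a subunit of the prenylating enzyme, at -0.23 (0.170), the active zone scaffold Rims1 at -0.09 (0.541) and the Rab3 effector Rph3a at 0.18 (0.155). With the block 18 of the 119 rose and 18 fell (30.3%, against 39.3% of all genes). On the deposited scale 43 of them (36.1%) passed, all lower, where 47.2% of all genes passed and 43.3% were lower. Without experiment 1 or without experiment 2, 0 passed (limma; 9 and 10 at an unadjusted p under 0.05), where 1.23% and 0% of all genes did.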

How the data were processed

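Per the submitters' processing notes, the authors made the deposited log2 signals with Affymetrix Expression Console, 1 value for each probe set on each array. The version, the summarisation, any normalization and the build: not given in the sources used here. Genes were named through the platform's annotation, which can be old: of 36685 probe sets, 18511 had 1 symbol, 575 several (not used) and 17599 none listed. All 54 Rab genes were found in RefSeq by gene identifier, with 0 symbols changed.

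All 36685 probe sets were quantile-normalized across the 6 arrays and the brightest was kept for each of 18166 genes. Testing used limma (3.58.1, under R 4.3.3): lmFit and trended eBayes, both sides, p-values adjusted by Benjamini-Hochberg across every gene, no block. The code was tested on simulated data. Since the labels number shared experiments, a second fit blocked on the experiment, and is quoted where a call changed. Deviations from the group means correlated at r = 0.72, 0.55 and 0.78 within experiments 1, 2 and 3. Across experiments, r was 0.50 for Ncoa3 shRNA array 1 with control array 2, and 0.31 for Ncoa3 shRNA array 2 with control array 1. It ran from -0.73 to -0.53 where only 1 array of the pair was from experiment 3. How much of these correlations the normalization made was not tested. The series calls its replicates biological and does not say what separates the cultures.

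The Rab genes, the lists and the tests were chosen with earlier results of these data known. Named were the Rab genes called with or without the block, the 6 brightest and 3 dimmest, the 5 with the smallest adjusted p between experiments (Rab34, the sixth called, was added after its value was seen), and the regulators called. Other Rab genes and regulators named as examples were chosen after their values were seen. Alternatives were the deposited values, median centring, cyclic loess, the block, no trend, a filter on dim genes, the mean of probe sets, and leaving out each array or experiment.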

Additional observations from a re-analysis of the deposited data

How the results depend on the processing

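The count of Rab genes called (8 of 54) was 23 in the deposited values, 2 after median centring, 16 with the experiment as a block, 26 with the block in the deposited values and 3 among the 45 above the olfactory receptor level, and 0 to 19 over the fits that left out 1 array or experiment. It was 12 after cyclic loess, 9 with no trend and 8 with the mean of probe sets, where 4622, 3473 and 3540 of all genes passed. After cyclic loess that was 22.2% of the Rab genes and 25.4% of all genes. With the block, it was 0 without experiment 1 or 2 and 20 without experiment 3, an alternative chosen after seeing the data. Over all genes the count (3548) was 8579, 1868, 7147, 10932 and 600 (of 10116) under the first 5 settings, and 0 to 8354 over the leave-outs (7927 and 0 with the block). In the deposited values the Rab count (23) was 13 without experiment 1, 15 without experiment 2 and 27 without experiment 3. The share of all genes was not counted in these leave-outs. The median Rab difference (0.01) was -0.19 in the deposited values, with or without the block, and 0.09 after median centring. The 119 regulators gave 43, 5, 36, 67 and 5 calls in the same 5 settings in place of 13, and 0 to 36 over leave-outs. Ncoa3 ranged from -1.15 to -0.86 over leave-outs, at -0.92 without experiment 1 and -0.88 without experiment 2, neither past the test (limma's adjusted p = 0.134 and 0.123).

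Between experiments, 6 Rab genes and 3411 genes were called. The deposited values gave 0 and 347, median centring 29 and 10074, cyclic loess 0 and 240, and each pair of experiments 0 and 0 (limma; 5 to 21 and 1323 to 7394 at an unadjusted p under 0.05). Rab22a (0.25) and Unc13d (0.27) turned to -0.01 and -0.02 in the deposited values, also with the block. The cause was not tested. Beyond the 8 Rab genes added, the replicate block changed no call of the genes listed as called.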

Other observations

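Some close paralogues had normalized differences (Ncoa3 shRNA minus control) of unlike size. They were -0.33 for Rab8b and 0.10 for Rab8a, -0.22 for Rab11a and 0.01 for Rab11b, and 0.31 for Rab33a and 0.06 for Rab33b. Rab1a stood at -0.21 and Rab1b at 0.14. Rab9a (0.38 ± 0.410, SE) and Rab9b (0.11 ± 0.419, SE) lay apart by less than either SE. Closer values were those of Rab2a and Rab2b (-0.55 and -0.40), Rab32 and Rab38 (-0.18 and -0.16) and Rab27a and Rab27b (-0.23 and -0.19). No test compared the members of a pair.

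Rab9a had unequal differences in the 3 experiments. Its normalized difference was 0.90, 0.21 and 0.03 in experiments 1, 2 and 3, and the mean of 0.38 ± 0.410 (SE) missed the threshold (limma, adjusted p = 0.573). With 1 array per group in each experiment, that variation was not tested.

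Rab1b and Rab27b each had a pair of probe sets. Rab1b read 8.92, 9.04 and 9.04 with Ncoa3 shRNA and 8.84, 8.68 and 8.95 with control shRNA on its dimmer probe set, and 12.01, 12.20 and 12.22 against 12.08, 12.09 and 12.22 on the one used. Rab27b read 7.62, 7.44 and 7.55 with Ncoa3 shRNA and 7.75, 7.65 and 7.97 with control shRNA on its dimmer one, and 7.57, 6.96 and 8.15 against 8.02, 7.73 and 8.38 on the one used.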
